A study of Mus musculus with 16 samples.

Results

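The genes described here encode gut peptide hormones, the peptides that enteroendocrine cells of the intestinal epithelium secrete. They were the rows of the deposited count tables whose gene name was one of Gip, Cck, Gast, Sct, Gcg, Pyy, Nts, Sst, Ghrl and Tac1, and all 10 were found among the 52525 genes that the 3 tables share. RNA-seq had been run on 16 libraries from C57BL/6 mice in 3 experiments, each comparing Cul4b knockout (KO) with wild type (WT). CUL4B is the scaffold of a ubiquitin ligase, and each comparison asked what its loss did to transcripts of the small intestine. The KO IEC genotype was pVillin-Cre; Cul4b fn/Y, in which the villin promoter drives Cre in the intestinal epithelium. It was sequenced as crypts, with 4 WT and 4 KO libraries, and as organoids grown from crypts, with 2 WT and 2 KO libraries. The KO CAG genotype was CAG-CreERT2; Cul4b fn/Y, in which a broadly active promoter drives a Cre that 4-OHT switches on, and it was sequenced as organoids with 2 WT libraries of its own and 2 KO libraries. Organoid cultures hold epithelium without the surrounding tissue, and 4-OHT was added to the cultures to induce Cre. The WT of the KO IEC model was Cul4b fn/Y without Cre. Whether the WT of the KO CAG experiment carried Cre or received 4-OHT is not given in the sources used here, nor are the culture medium and passage of the sequenced organoids. Most of the study's mice were young adults, with no age given for each library.

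Enteroendocrine cells are scattered single cells of the epithelium that arise from crypt stem cells through progenitors expressing the transcription factor Neurog3. They pack peptide precursors into vesicles with chromogranins such as Chga, cut them to active hormones and release them when food or bile acids reach the gut. Several of these hormones follow position along the gut: Gip, Cck, Sct and Ghrl are known mainly from the proximal small intestine, and Pyy, Nts and much of Gcg from the distal part. Cells of the same lineage can switch between peptides as they move from crypt to villus, so a bulk library sees a mixture of such states.

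Depth and labels were checked first. Total counts per library lay between 7348191 and 16881395, and the floor of 3 counts corresponded to 0.178 to 0.408 CPM (counts scaled to the size of the library). Cul4b itself fell in each experiment, by 4.56 on the log2 scale in the KO IEC crypts, by 5.50 in the KO IEC organoids and by 4.02 in the KO CAG organoids. The study calls its replicates biological, while the labels do not say whether they came from separate animals or cultures. The p-values thus rest on the spread between these libraries. In bulk RNA, fewer hormone cells and less hormone RNA per cell cannot be told apart. Markers of epithelium were abundant in all libraries, at a summed 6657 to 11826 CPM over 8 genes. Whether the 3 experiments were prepared together is not given in the labels, and their levels are set side by side without a test.

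Annotated positions are those of the tables, on GRCm38. Gip (ENSMUSG00000014351) lies at chr11:96024545-96030831 on the plus strand, Cck (ENSMUSG00000032532) at chr9:121489824-121495694 on the minus strand, Sct (ENSMUSG00000038580) at chr7:141278330-141279133 on the minus strand and Gcg (ENSMUSG00000000394) at chr2:62474530-62483650 on the minus strand. Sst (ENSMUSG00000004366, chr16, minus strand) has a gene model of 599 bases in the crypt and KO CAG tables and of 721 bases in the KO IEC organoid table. Ghrl (ENSMUSG00000064177, chr6:113716119-113719880, minus strand) overlaps Gm26982 and Gm44033 on the opposite strand. Strand use in the counting is not given, so reads of Ghrl and of these genes cannot be told apart.

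The 250 bases before the RefSeq start site of Gip, Cck, Sct and Gcg are shown because these are the genes whose RNA levels the results turn on: the first 3 had the largest fold changes among the hormone genes with at least 10 counts in every KO CAG and WT library, and Gcg, of the L cells, is shown beside them as a gene of the distal gut that was tested in all 3 experiments. Sequences are from RefSeq on GRCm38.p6, all 10 hormone genes matched by symbol, and each is printed on the gene's own strand, 5′ to 3′. Capitals mark matches to 4 motifs. The TATA box was searched as TATAAA on the given strand. The cAMP response element, TGACGTCA, is its own reverse complement. An E box of the kind NEUROD1 binds was searched as CAGATG on both strands. A site of the kind GATA4 binds was searched as AGATAA on both strands. None of the printed matches overlap each other. The windows are chr11:96024295-96024544 (plus strand), chr9:121495695-121495944, chr7:141279134-141279383 and chr2:62483654-62483903 (minus strand), in this order.
Gip: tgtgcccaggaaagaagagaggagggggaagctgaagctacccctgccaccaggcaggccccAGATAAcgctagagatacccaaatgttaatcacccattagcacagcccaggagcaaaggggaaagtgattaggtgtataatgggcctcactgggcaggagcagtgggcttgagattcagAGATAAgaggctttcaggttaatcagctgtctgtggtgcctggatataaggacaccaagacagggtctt
Cck: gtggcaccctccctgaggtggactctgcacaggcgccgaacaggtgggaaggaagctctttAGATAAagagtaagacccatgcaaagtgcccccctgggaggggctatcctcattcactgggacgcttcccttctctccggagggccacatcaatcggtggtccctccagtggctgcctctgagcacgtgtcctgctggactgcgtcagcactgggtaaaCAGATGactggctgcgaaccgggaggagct
Sct: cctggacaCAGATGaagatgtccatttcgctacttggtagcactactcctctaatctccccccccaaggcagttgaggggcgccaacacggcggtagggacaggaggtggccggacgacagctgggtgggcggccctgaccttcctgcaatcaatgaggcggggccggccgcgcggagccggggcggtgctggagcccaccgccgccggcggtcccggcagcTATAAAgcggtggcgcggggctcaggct
Gcg: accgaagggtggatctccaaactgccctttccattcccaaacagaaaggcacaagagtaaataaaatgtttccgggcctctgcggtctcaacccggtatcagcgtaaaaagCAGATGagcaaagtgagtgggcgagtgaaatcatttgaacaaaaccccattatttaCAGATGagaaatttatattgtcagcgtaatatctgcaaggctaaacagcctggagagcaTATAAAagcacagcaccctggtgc
The Gip window held AGATAA at 188 and at 69 bases before the start. In Cck, CAGATG began 30 bases before the start and AGATAA 189 bases before it. Sct had TATAAA at 28 bases and CAGATG at 242 bases, and Gcg had TATAAA at 24 bases and CAGATG at 139 and 83 bases. Of the 10 hormone windows 4 held AGATAA, 4 held CAGATG, 2 held TATAAA and 1, that of Sst, held TGACGTCA, 48 bases before its RefSeq start. Among all 32851 windows of the same length the shares were 9.99%, 14.4%, 7.59% and 1.55%. A match describes these letters only. With 10 windows, no comparison of the shares was made.

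In the KO CAG organoids the hormone genes were higher in KO than in WT. They were chosen with earlier results of these data known, so the shares set beside their counts are descriptions. Of the 10 genes 8 had at least 10 counts in every library, and all 8 rose in edgeR's quasi-likelihood test, with p adjusted over all genes by Benjamini-Hochberg. Of the 12562 genes with as many counts 17.7% rose, and 18.1% of all 13598 genes tested. Rises of at least 2-fold were found for 6 of the 8, against 5.05% of genes with as many counts and 6.36% of all genes tested. The median log2 fold change of the 8 was 1.25, from 0.57 for Tac1 to 1.92 for Gip, against -0.0018 over genes with as many counts. Gast passed the filter on low counts only through its KO libraries, so its call is not counted here, and Pyy did not pass it. Both KO libraries lay above both WT libraries for all 8 genes with at least 10 counts in every library, a pattern found in 35.5% of the genes tested. Gast and Pyy had the same order, but are not set against this share. The spread between KO CAG replicates was small (biological coefficient of variation 0.0815). With the spread estimated over all 16 libraries in one fit, Sct alone of the 8 stayed past the threshold, and 1.96% of all genes rose.

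**Figure D1:**
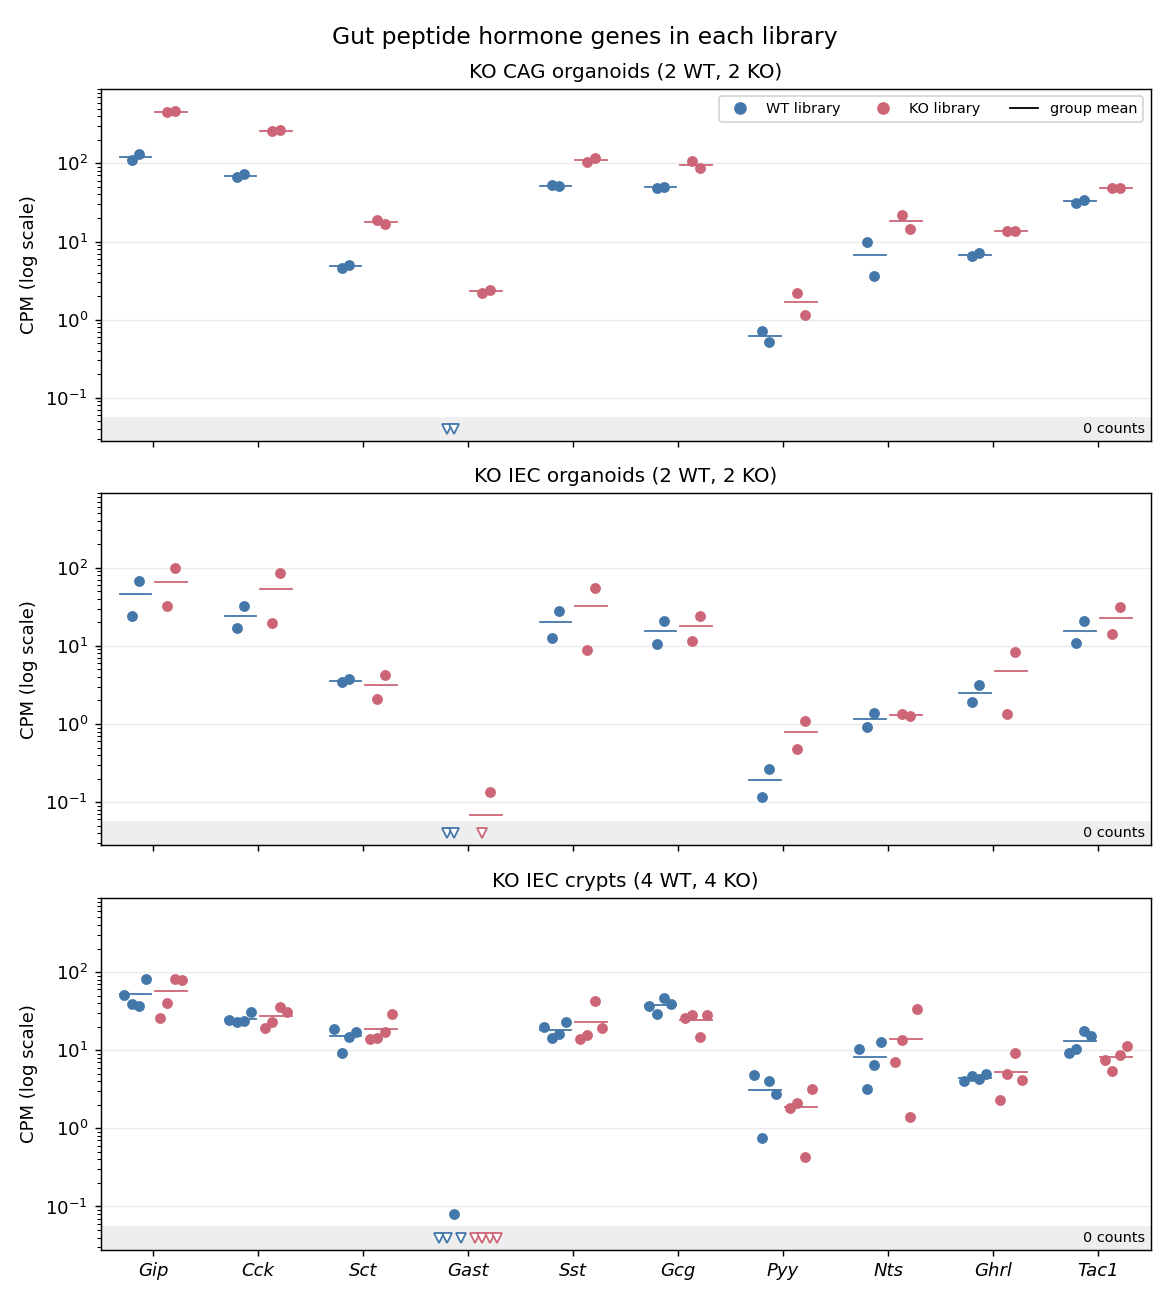
Level of each of the 10 hormone genes in every library, as CPM on a log axis, in the KO CAG organoids (top), KO IEC organoids (middle) and KO IEC crypts (bottom). Points are libraries, lines are group means and open triangles in the grey band are libraries with 0 counts. In the top panel the KO points sit above the WT points for all 10 genes, with Gip at 112 and 131 CPM in WT and 458 and 464 CPM in KO. In the middle panel the groups overlap for every gene but Pyy, and in the bottom panel for every gene but Gcg.

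Gip, Cck and Sct had the largest fold changes of these 8 genes. Gip, the glucose-dependent insulinotropic peptide of K cells, was at 112 and 131 CPM in the WT and at 458 and 464 CPM in the KO CAG organoids. Its log2 fold change was 1.92 (SE 0.0997, adjusted p = 4.17e-06, edgeR's quasi-likelihood test). Cck, cholecystokinin, which empties the gallbladder and stimulates the pancreas, was at 66.7 and 72.8 CPM in WT and at 259 and 264 CPM in KO, a log2 fold change of 1.91 (SE 0.0866, adjusted p = 1.93e-06). For both genes the gap between the groups was several times the distance between replicates. Sct, secretin, which triggers bicarbonate secretion, was at 4.58 and 5.05 CPM in WT and at 18.9 and 16.6 CPM in KO, from 38, 39, 136 and 173 reads. Its log2 fold change was 1.88 (SE 0.199, adjusted p = 0.000119), so these 3 genes rose by between 3.67-fold and 3.79-fold.

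Gastrin, the hormone that drives gastric acid secretion, is made mainly in the stomach antrum and in some duodenal cells. No read of Gast was counted in either WT library of this experiment, and 16 and 25 reads were counted in the KO CAG libraries (2.22 and 2.40 CPM). The WT floors were 0.362 and 0.395 CPM, and the mean KO level, from counts divided by library totals alone, was 5.79 times the larger of them. This ratio is not a lower bound, since counting error is not in it. It is given as a description without its p, since the filter kept this gene for its KO counts. The exact 95% Poisson intervals of the KO counts, which cover counting error only, were 9.15 to 26.0 and 16.2 to 36.9 reads. Summed markers of the stomach were at 6.75 and 9.98 CPM in WT and at 11.7 and 9.62 CPM in KO, groups that overlap. Of these markers Pgc, a pepsinogen, rose (log2 fold change 1.22, adjusted p = 0.0178), and its part in the Gast result was not tested. Outside this experiment Gast was close to absent, with 1 read over all 8 crypt libraries and 2 reads over the 4 KO IEC organoid libraries.

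Sst, Gcg, Ghrl, Nts and Tac1 had smaller fold changes. Sst, somatostatin, which D cells release to restrain other hormone cells, was at 52.9 and 51.2 CPM in WT and at 103 and 118 CPM in KO (log2 fold change 1.09, SE 0.0954, adjusted p = 4.10e-05). Gcg, which encodes the glucagon-like peptides in L cells, was at 49.0 and 49.5 CPM in WT and at 106 and 87.4 CPM in KO (log2 fold change 0.97, SE 0.107, adjusted p = 0.000154). Ghrl, the hunger hormone ghrelin, was at 6.50 and 7.13 CPM in WT and at 13.6 and 13.8 CPM in KO (log2 fold change 1.01, SE 0.191, adjusted p = 0.00318). The KO libraries of these 3 genes were close to double the WT level, with no overlap. Nts, neurotensin, was at 9.76 and 3.63 CPM in WT and at 21.5 and 14.5 CPM in KO (log2 fold change 1.40, SE 0.351, adjusted p = 0.0130). The WT replicates of Nts differed more from each other than those of any other hormone gene tested here, and DESeq2's Wald test did not call it. Tac1, which encodes substance P and is expressed by enterochromaffin cells and by enteric neurons, was at 30.7 and 34.5 CPM in WT and at 48.5 CPM in both KO libraries, the smallest rise (log2 fold change 0.57, SE 0.108, adjusted p = 0.00307). Pyy, peptide YY of L cells, had 6 and 4 reads in WT and 16 and 12 reads in KO, and without the filter its log2 fold change was 1.36 (adjusted p = 0.0765, edgeR).

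Because the hormone genes rose by different amounts, their mixture changed. Levels of different genes were compared per length, as RPKM (CPM divided by the gene model's length in kilobases). Gip had the highest mean RPKM in every group of the series, though in 3 of the 6 groups its range overlapped that of Sst, the next gene. It made up 44.4% and 48.5% of the summed RPKM of the 10 genes in the WT libraries of the KO CAG experiment and 56.0% in both KO libraries. Cck took 14.0% and 14.2% in WT and 16.7% and 16.8% in KO, and Sst took 24.1% and 21.7% in WT and 14.5% and 16.4% in KO. In WT the order of mean RPKM ran from Gip (177) through Sst (86.9), Cck (53.5), Gcg (33.0), Tac1 (9.59), Sct (7.47), Ghrl (6.32), Nts (5.36) and Pyy (0.983) to Gast at 0. The ranges of Ghrl and Nts overlapped, and the other neighbours in this order did not. In KO, Cck (201 RPKM) stood above Sst (185 RPKM), and Sct (27.6 RPKM) and Nts (14.4 RPKM) stood above Tac1 (14.3 RPKM), the ranges of Nts and Tac1 overlapping. Summed over the 10 genes, hormone RNA was at 333 and 356 CPM in WT and at 1033 and 1031 CPM in KO.

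Relative to Chga, the granin shared by most enteroendocrine cells, the hormone genes did not share 1 direction. Chga was at 94.1 and 103 CPM in WT and at 300 and 260 CPM in KO (log2 fold change 1.50, SE 0.0986, adjusted p = 8.75e-06, edgeR). Leaving out Gast, 3 genes were higher per Chga in both KO libraries than in both WT libraries, 4 were lower, and 2 (Nts and Pyy) overlapped. Over all genes tested, 2.14% were higher per Chga in this way and 94.1% were lower, so that being lower per Chga was the common pattern of these libraries. Gip per Chga was 1.19 and 1.27 in WT and 1.53 and 1.78 in KO. The ratio of Sct lay between 0.0487 and 0.0489 in WT and between 0.0631 and 0.0640 in KO, and that of Cck between 0.705 and 0.709 in WT and between 0.865 and 1.02 in KO. Tac1 per Chga ran the other way, from 0.327 and 0.334 in WT to 0.162 and 0.186 in KO. Gcg (0.479 to 0.521 in WT, 0.336 to 0.353 in KO), Sst (0.496 to 0.562 and 0.345 to 0.455) and Ghrl (0.0690 to 0.0691 and 0.0454 to 0.0529) were lower per Chga as well. These ratios are descriptions of 4 libraries, in which the smallest p of an exact permutation test of 2 against 2 is 0.333.

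**Figure D2:**
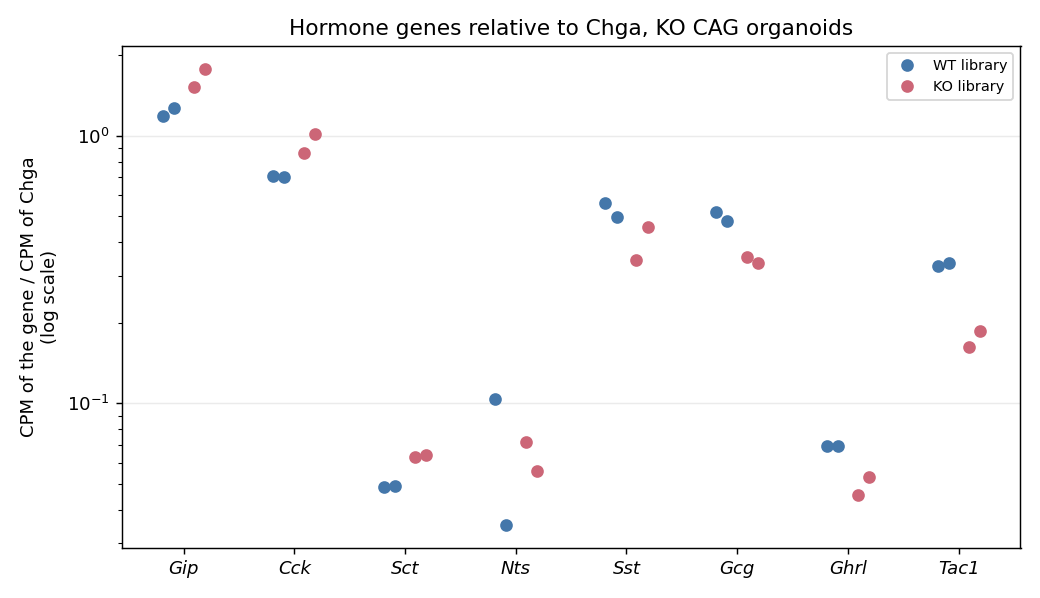
CPM of 8 hormone genes divided by the CPM of Chga in the same library, on a log axis, for the 2 WT and 2 KO CAG organoid libraries. Each point is a library. Gip, Cck and Sct are higher per Chga in both KO libraries, Sst, Gcg, Ghrl and Tac1 are lower, and the Nts points of the groups interleave.

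The machinery that makes, stores and releases these peptides was measured with lists written from gene names, with earlier results of these data known. Of 15 granin and vesicle genes tested, 12 rose and none fell in the KO CAG organoids, with a median log2 fold change of 1.02. Besides Chga these included Scg2 (1.74, adjusted p = 1.95e-05) and Chgb (1.03, adjusted p = 4.10e-05), further granins of the vesicle core. Of 5 enzymes and regulators of peptide processing, 3 rose (median 0.90): Cpe, the carboxypeptidase that trims hormone precursors (1.73, adjusted p = 5.52e-06), Pam, which amidates peptides such as CCK and gastrin (0.90, adjusted p = 0.00147), and Pcsk1n, an inhibitor of a prohormone convertase (1.67, adjusted p = 0.00356). Among 22 transcription factors of the lineage 10 rose and none fell, with a median of 0.67. The lowest p-values there belonged to Neurod1 (1.22, adjusted p = 0.00165), Neurog3 (0.85, adjusted p = 0.00340) and Rfx6 (0.79, adjusted p = 0.00577). With all 16 libraries in one edgeR fit these 3 were no longer called (adjusted p = 0.0764, 0.0742 and 0.126), nor were Chgb (adjusted p = 0.205), Pam (adjusted p = 0.115) and Pcsk1n (adjusted p = 0.184). In that fit 4 granin and vesicle genes (Chga, Scg2, Scg3 and Syp), 1 processing gene (Cpe) and 0 transcription factors were called. The medians are to be read against 0.0012 over all genes tested and the 18.1% of genes that rose.

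Genes of the neighbouring serotonin system, sensors and receptors moved less evenly, in libraries where 18.1% of all genes tested rose. Of 6 serotonin genes 4 rose, among them Tph1, the enzyme that starts serotonin synthesis in enterochromaffin cells (log2 fold change 1.28, adjusted p = 0.000259), the vesicle transporter Slc18a1 (1.20, adjusted p = 0.000270) and Maoa, which degrades serotonin (0.86, adjusted p = 0.000250), and 1 fell, the uptake transporter Slc6a4 (-0.64, adjusted p = 0.0381). Of 10 nutrient and bile acid sensors 6 rose and 1 fell. The glucose transporter Slc5a1, also the main apical glucose carrier of enterocytes, rose by 0.97 (adjusted p = 0.000129), the potassium channel subunit Abcc8 by 0.88 (adjusted p = 0.0115) and the fatty acid receptor Ffar1 by 1.44 (adjusted p = 0.0130), and Trpa1 was the one that fell (-0.65, adjusted p = 0.0427). Of the hormone receptors and the peptidase Dpp4, 5 of 24 genes were tested. Dpp4, which inactivates incretins, rose (0.67, adjusted p = 0.00129), the neurotensin-binding Sort1 fell (-0.29, adjusted p = 0.0194), and Sstr5, a somatostatin receptor, was at 1.13 (adjusted p = 0.0635). Other gut peptides were led by guanylin and uroguanylin, which goblet cells and enterocytes also make: Guca2b rose by 2.48 (adjusted p = 6.69e-06) and Guca2a by 1.36 (adjusted p = 0.000478), while Iapp was at 1.16 (adjusted p = 0.0521), so that 2 of 4 tested rose. With all 16 libraries in one fit Slc18a1 and Guca2b were still called, Tph1 was not (edgeR adjusted p = 0.0573), and 0 sensors and 0 receptor genes were.

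**Figure D3:**
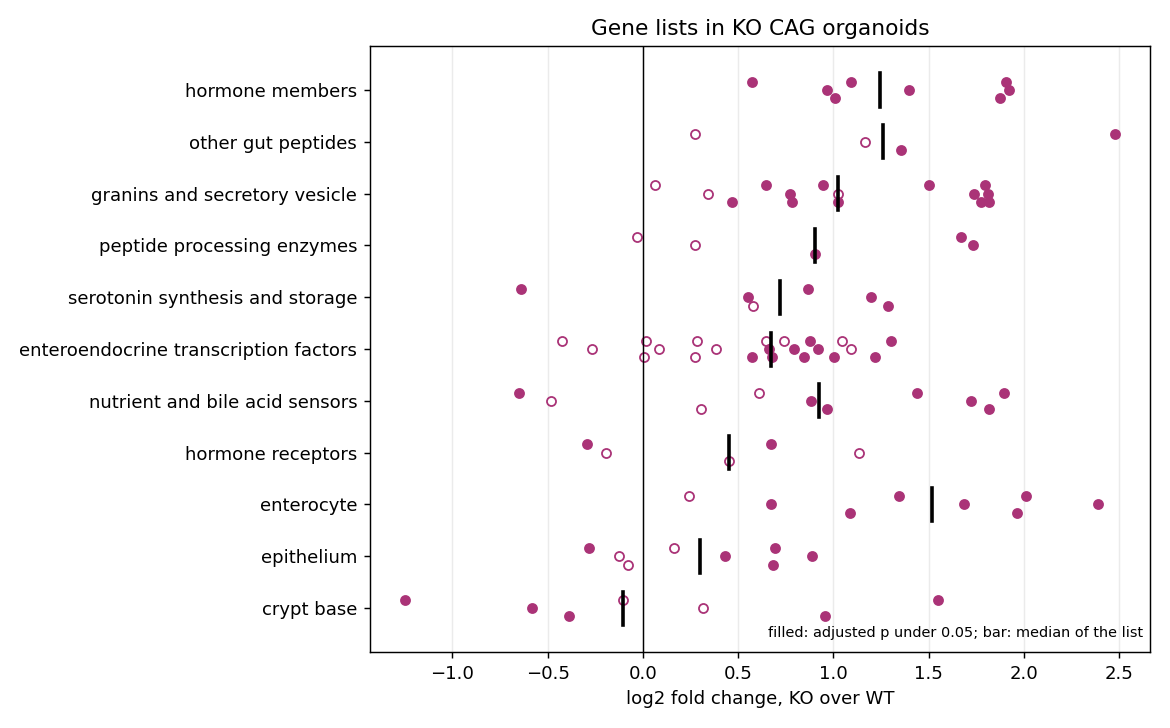
Log2 fold change of KO over WT in the KO CAG organoids for the tested genes of 11 lists, 1 point per gene. Filled points passed an adjusted p under 0.05 and bars are list medians. Gast is not drawn and not in the median, because its WT libraries had 0 counts. The hormone list has the median 1.25, next to 1.52 for enterocyte markers, 1.02 for granins and vesicle genes and -0.11 for crypt base genes.

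Markers of other cells moved in the same libraries, in which 18.1% of all genes tested rose. Of 8 enterocyte markers 7 rose, led by Apoa1 (2.39), Apoa4 (2.01) and Krt20 (1.96), and their sum was at 4004 and 4401 CPM in WT and at 11707 and 9309 CPM in KO. Of 8 epithelial genes 4 rose, with Krt19 (0.89), Krt8 (0.70) and Vil1 (0.69) leading, and 1 fell. Of 7 crypt base genes 2 rose, Mmp7 (1.55) and Lyz1 (0.96) of Paneth cells. The 3 that fell included the stem cell gene Lgr5 (-1.25), while Ascl2, another stem cell marker, was not called (0.32, edgeR adjusted p = 0.161). Both regional lists had risen members: 4 of 8 proximal genes (Lct 1.09, Fabp1 0.67, Slc40a1 1.12) and 4 of 7 distal genes (Slc51a 1.62, Fgf15 2.51, Slc51b 1.66), with medians of 0.44 and 1.42. Enteric neuron and glia markers summed to 10.7 and 13.6 CPM in WT and to 26.7 and 21.1 CPM in KO, of which Ret rose (1.18) and Tubb3 rose (2.33), while 1 member fell and Stmn2 was at 0 counts in all 4 libraries. The mesenchymal list had 1 tested gene, Vim, which rose (0.58), no immune marker was tested, and of the 2 tested stomach genes Pgc rose and Atp4a was at -0.76 (adjusted p = 0.0624). Of 2 tested pancreatic genes Pnlip rose (2.64) and Ctrb1 fell (-1.33), and Ins1 had 0 counts in these 4 libraries. With all 16 libraries in one fit Krt20, Krt19, Tubb3 and Lgr5 were the only genes of these lists still called. The part of these other cells in the hormone result was not tested.

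In the KO IEC organoids, with the villin-driven deletion, no hormone gene passed the threshold. The edgeR test called 0 of 8 tested genes, with 0 at an unadjusted p under 0.05 and 0 by DESeq2's Wald test. Over all 13938 genes the shares were 0.00717%, which was Cul4b alone, 4.66% and 0.194%. The median log2 fold change of the 8 was 0.52, with 7 above 0 and Sct below it (-0.18). Replicates spread widely, with a biological coefficient of variation of 0.280.

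Within each group the 2 libraries lay far apart. Gip was at 24.2 and 68.6 CPM in the WT and at 32.4 and 98.4 CPM in the KO IEC organoids (log2 fold change 0.49, 95% CI -1.31 to 2.30). Cck was at 17.0 and 31.9 CPM in WT and at 19.4 and 86.3 CPM in KO (1.11, 95% CI -0.81 to 3.03). Sst was at 12.7 and 27.7 CPM in WT and at 8.98 and 55.0 CPM in KO (0.66, 95% CI -1.61 to 2.93). In each of these genes the libraries numbered 2 were the higher ones within their group, and the intervals hold both no change and a change of the size seen in the KO CAG organoids. Ghrl was at 1.90 and 3.12 CPM in WT and at 1.33 and 8.31 CPM in KO, Tac1 at 10.9 and 20.5 CPM and at 14.3 and 31.7 CPM, and Gcg at 10.5 and 20.5 CPM and at 11.4 and 24.1 CPM. Sct was at 3.40 and 3.72 CPM in WT and at 2.11 and 4.19 CPM in KO, and Nts at 0.921 and 1.39 CPM and at 1.33 and 1.28 CPM. Pyy was the only hormone gene with both KO libraries (8 and 16 reads) above both WT libraries (2 and 4 reads), which held for 19.4% of the genes tested, but it was too low to be tested.

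Other measures were higher in the libraries numbered 2 as well. Enterocyte markers summed to 5475 and 9496 CPM in WT and to 3821 and 12054 CPM in KO, and mitochondrial ribosomal RNA was at 1379 and 2167 CPM in WT and at 1189 and 2674 CPM in KO. Their part in the hormone levels was not tested. Without KO replicate 1, a fit in which the remaining KO library is assumed to vary like the WT pair, edgeR called 3 of 9 tested hormone genes higher (Cck, Ghrl and Sst), against 6.69% of 14650 genes, and the median log2 fold change of the 9 was 1.09. Without KO replicate 2 it called 0 of 8, against 0% of all genes called higher, and the median was -0.47. The sign of the median thus changed with the KO library that was kept. Of the other lists no gene was called in either direction in these organoids, with 14 granin and vesicle genes (median 0.65), 21 lineage transcription factors (0.20), 5 processing genes (0.73), 6 serotonin genes (0.35), 7 sensors (0.28), 5 receptor genes (0.16), 4 other gut peptides (0.57), 8 enterocyte (0.23), 8 epithelial (0.28), 7 crypt base (-0.73), 8 proximal (0.64), 4 distal (-0.49), 3 neuronal (0.14), 1 mesenchymal (0.48), 2 stomach (-0.98) and 1 pancreatic gene (0.86) tested and no immune gene tested.

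In the KO IEC crypts, freshly isolated tissue with 4 libraries a group, no hormone gene passed the threshold. The edgeR test called 0 of 9 tested, against 6.96% of 13427 genes. At an unadjusted p under 0.05 were 2 (Gcg and Tac1), against 31.9% of all genes, and DESeq2's Wald test called 1 (Gcg), against 18.5%. The median log2 fold change was 0.13, with 6 genes above 0 and 3 below it. Summed hormone RNA was at 134 to 227 CPM in WT and at 118 to 240 CPM in KO. Chga overlapped too, at 77.5, 54.8, 67.2 and 106 CPM in WT and 65.1, 71.2, 84.0 and 79.0 CPM in KO (log2 fold change -0.03, 95% CI -0.45 to 0.39).

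Gcg was the 1 gene of the 9 tested whose groups did not overlap. It was at 37.1, 29.5, 46.7 and 38.9 CPM in WT replicates 1 to 4 and at 25.8, 28.0, 14.6 and 28.5 CPM in KO replicates 1 to 4. Every KO library lay below every WT library, which held for 8.79% of the genes tested, so 1 of 9 is near the background. Its log2 fold change was -0.65 (SE 0.216, 95% CI -1.13 to -0.16), with an adjusted p of 0.0809 in edgeR's quasi-likelihood test, which misses the threshold. Tac1 was at 9.31, 10.3, 17.7 and 15.1 CPM in WT and at 7.40, 5.50, 8.80 and 11.4 CPM in KO (log2 fold change -0.67, SE 0.273, edgeR adjusted p = 0.130), groups that overlap. Markers of enteric neurons and glia, other cells that express Tac1, summed to 5.87 to 10.1 CPM in WT and to 2.65 to 5.29 CPM in KO. Mesenchymal markers were lower too, at 14.0 to 18.2 CPM against 7.93 to 11.1 CPM. Their part in the Tac1 level was not tested.

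The remaining hormone genes overlapped between the groups. Gip ranged from 36.7 to 81.8 CPM in WT and from 26.2 to 82.1 CPM in KO (log2 fold change 0.13, 95% CI -0.72 to 0.99). Cck, the most even of them, ranged from 23.0 to 30.6 CPM and from 19.1 to 35.6 CPM (0.10, 95% CI -0.34 to 0.53). Its interval lies below the log2 fold change of Cck in the KO CAG organoids. This also held for Gip, Sct, Sst, Gcg and Tac1, each against its own KO CAG value, but not for Ghrl and Nts. In edgeR's interaction test, given below, none of these genes passed after adjustment. Sct ranged from 9.33 to 18.7 CPM in WT and from 14.1 to 28.8 CPM in KO (0.31, 95% CI -0.31 to 0.93), and Sst from 14.1 to 23.3 CPM and from 14.1 to 42.1 CPM (0.31, 95% CI -0.45 to 1.06). Ghrl ranged from 4.03 to 4.90 CPM and from 2.33 to 9.33 CPM (0.22, 95% CI -0.59 to 1.02). The KO crypts thus spread more than the WT crypts for Ghrl and Sst, in both of which KO replicate 3 was the highest library. Relative to their level, Nts and Pyy had the widest ranges. Nts ran from 3.21 to 12.6 CPM in WT and from 1.38 to 34.1 CPM in KO (0.78, 95% CI -0.89 to 2.45). Pyy ran from 0.754 to 4.84 CPM and from 0.424 to 3.22 CPM (-0.70, 95% CI -2.03 to 0.63), on 4 to 54 reads per library. KO replicate 3 was the lowest library of the experiment in Nts, Pyy and Gcg and the highest in Gip, Cck, Sst and Ghrl.

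Crypt libraries also differed in measures outside the hormones. Enterocyte markers summed to 1945 to 8606 CPM in WT and to 7357 to 16397 CPM in KO. Mitochondrial ribosomal RNA was at 22.8 CPM in WT replicate 1 and at 18.6, 21.0 and 27.6 CPM in KO replicates 1 to 3, at 833 CPM (WT) and 1107 CPM (KO) in the replicates numbered 4, and at 2740 and 2737 CPM in WT replicates 2 and 3, a level no KO library had. Within the low class the log2 CPM of Gcg differed by -0.75 and within the middle class by -0.45, each without a test since 1 WT library stood in each class. Tac1 differed by -0.38 and -0.40, and Gip by -0.19 and -0.03. Nts differed by -0.98 in the low class and by 1.42 in the middle class. The counts of the other lists are to be read against the 6.96% of all genes called in either direction. Of 11 granin and vesicle genes 2 fell (Syp -1.13, Cplx2 -0.82), and 1 of 18 transcription factors fell (Mnx1 -0.89). Of 8 sensors 1 rose (Lpar5 0.65), and 2 of 7 crypt base genes fell (Lgr5 -0.74, Ascl2 -0.67). Of 8 epithelial genes 1 rose (Vil1 1.00), and 1 of 2 neuronal genes fell. None of the 6 serotonin (median 0.51), 5 processing (-0.11), 3 receptor (-0.02), 2 other peptide (0.64), 8 enterocyte (1.57), 8 proximal (1.36), 5 distal (0.80), 3 mesenchymal (-1.03), 9 immune (0.40) and 1 stomach gene (-0.42) tested were called, and no pancreatic gene was tested.

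**Figure D4:**
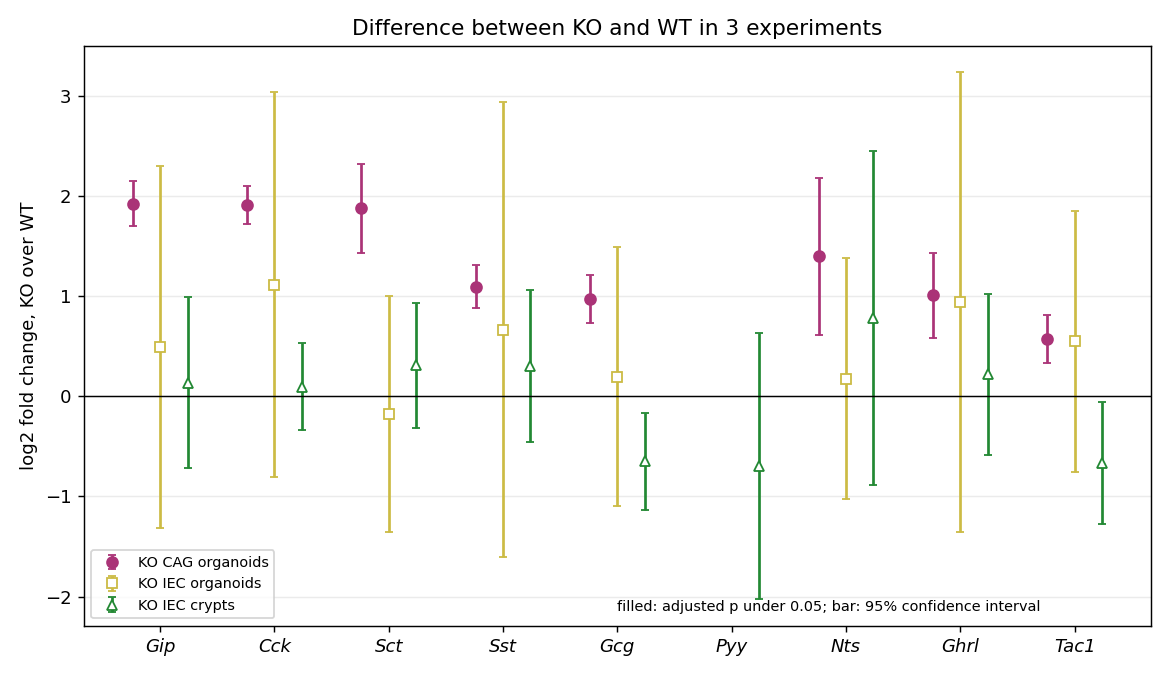
Log2 fold change of KO over WT with its 95% confidence interval for 9 hormone genes in the KO CAG organoids (circles), KO IEC organoids (squares) and KO IEC crypts (triangles). Filled symbols passed an adjusted p under 0.05 in edgeR's quasi-likelihood test. Gast is left out because it had 0 counts in the WT of the KO CAG experiment and was not tested elsewhere. Pyy was tested in the crypts alone. All KO CAG intervals lie above 0, all KO IEC organoid intervals include 0, and in the crypts those of Gcg and Tac1 lie below 0.

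Whether the effect of the deletion differed between the experiments was tested as an interaction in 1 fit of all 16 libraries. Against the crypts, the KO CAG effect was larger by 1.61 (log2) for Gcg (95% CI 0.61 to 2.60, adjusted p = 0.143 in edgeR's fit), by 1.56 for Sct (95% CI 0.49 to 2.62, adjusted p = 0.173), by 1.80 for Cck (95% CI 0.49 to 3.11, adjusted p = 0.200) and by 1.78 for Gip (95% CI 0.15 to 3.40, adjusted p = 0.297). None of the 10 hormone genes passed in edgeR, and DESeq2's Wald test called 1, Gcg. These 4 and Tac1 were at an unadjusted p under 0.05. The unadjusted p of Gast is not counted, since its fitted values are unstable at 0 counts and it was kept for its KO CAG reads. Of all 15585 genes edgeR called 0.237% with a larger KO CAG effect, 14.4% were at an unadjusted p under 0.05 and DESeq2 called 2.56%. Against the KO IEC organoids, Sct had the largest difference among the hormone genes with reads in every group (2.04, 95% CI 0.76 to 3.31, adjusted p = 0.205), and Gip differed by 1.39 (95% CI -0.47 to 3.26). Again 0 of 10 passed in edgeR, 1 (Sct) was at an unadjusted p under 0.05, and DESeq2's Wald test called 0. Over all genes edgeR called 0.199% with a larger KO CAG effect, 10.9% were at an unadjusted p under 0.05 and DESeq2 called 1.67%. Between the KO IEC organoids and the crypts 0 of 10 passed, 2 (Tac1 and Pyy) were at an unadjusted p under 0.05, and DESeq2's Wald test called 0. Over all genes the shares were 0% called with a larger effect in the organoids, 6.96% and 0.353%. The rise of the hormone genes in the KO CAG organoids was thus not shown to differ from the other experiments after adjustment.

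The genes whose pattern was most like a hormone gene were found by Pearson's r of log2 CPM over the 16 libraries, each experiment centred on its own mean, among 12478 genes. The points share libraries and depth, the difference between KO and WT is kept in them, and the values are descriptions. Cck was most like Tph1 (0.956), Chga (0.954) and Scg2 (0.950), all 3 enteroendocrine genes. Gip was most like Megf11 (0.962), Cck (0.924) and Ctsa (0.908), and Sct most like Slc18a1 (0.951), Trim7 (0.950) and Atp6v1d (0.942). Sst and Ghrl were among the closest to each other (0.934), with Tm4sf20 (0.935) and Dcaf5 (0.907) next to Sst and Dapp1 (0.925) and Dcaf5 (0.917) next to Ghrl. Gcg was closest to Mgll (0.939), Nfasc (0.931) and Pappa2 (0.906), none of them a hormone gene of the list. Nts (Guca2a 0.884, Smim3 0.882, Mtmr11 0.880) and Tac1 (Cul9 0.857, Orai3 0.851, Col18a1 0.839) had weaker closest values.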

How the data were processed

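RNA-seq libraries were prepared and sequenced by a service provider, and the authors deposited 1 table of unnormalized read counts for each experiment, with a column of gene lengths. The submitters' processing notes name HISAT2 2.0.5 and featureCounts 1.5.0-p3, while build, annotation and strand use are not given in the sources used here. Positions were compared with GENCODE M21 on GRCm38. Groups and replicate numbers came from the sample titles. The hormone genes and all lists were chosen with earlier results of these data known.

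KO was compared with WT within each experiment, using filterByExpr, TMM factors and the quasi-likelihood test of edgeR 4.0.16 in R 4.3.3. P-values were adjusted by Benjamini-Hochberg over all genes tested (13427 in crypts, 13938 in KO IEC organoids, 13598 in KO CAG organoids), and a gene was called at an adjusted p under 0.05. SE was taken as log2 fold change over the root of the F statistic. CPM were TMM-scaled, and RPKM divided them by the table's gene length. Log2 CPM carried a prior count of 2. The floor was 3 counts per library. Poisson intervals and floors cover counting error only, and the 95% CI of a fold change covers the spread between libraries.

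Differences between effects were tested as interactions over 15585 genes. Genes named from a list were the 3 tested ones with the lowest p in the KO CAG organoids, besides Chga, Neurog3 and Cul4b. Those named in addition from the crypts, and Slc6a4, Trpa1 and Ascl2 in the KO CAG organoids, were chosen after their values were seen. Alternatives were DESeq2 size factors, library size alone, no filter, a minimum of 10 counts throughout, DESeq2 1.42.0's Wald test, a replicate block, a 2-fold threshold, 1 fit of 16 libraries, each library left out, and the class of mitochondrial ribosomal RNA (bounds 100 and 2000 CPM) in the crypts. The tests were tried on simulated data first. Replicates of a group differed by more than sampling noise. The values of 1 gene of the cell type marker lists are not reported here.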

Additional observations from a re-analysis of the deposited data

Results flagged for a closer look

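Gast in the WT crypts was picked out because 1 library stood apart from the other 3: WT replicate 3 held 1 read (0.0800 CPM) and the others held 0. A single read is under the floor of 3 counts. Of 19 groups of 4 libraries examined in this way 1 was picked out. With 3 libraries at 0 counts any read in the remaining library is picked out, so no rate of chance picks applies to this group.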

How the results depend on the processing

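In the KO CAG organoids no hormone gene changed direction under any alternative run. The called counts given next include Gast, which passed the filter on low counts only through its KO libraries. The count of 9 called hormone genes, Gast included, became 2 (Gast and Sct) with all 16 libraries in one fit, and lay between 7 and 9 under the other settings and between 9 and 10 when each library was left out, Pyy being added without KO replicate 2. In the crypts the count of 0 became 1 without the filter and 1 with DESeq2's Wald test, Gcg in both, and stayed at 0 when each library was left out. In the KO IEC organoids the count of 0 became 1 (Cck) without the filter and ranged from 0 to 3 over left-out libraries. For the interactions, no filter gave 2, 5 and 2 called hormone genes for KO CAG against KO IEC organoids, KO CAG against crypts and KO IEC organoids against crypts. For KO CAG against crypts DESeq2's Wald test gave 1 (Gcg), and left-out libraries 0 to 1, the 1 being Cck without KO IEC organoid replicate 1 or 2. The cause of these moves was not tested, beyond the fewer or further libraries and genes each setting holds.

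Log2 fold changes that changed sign when a library was left out ranged as follows. In the crypts: Gip -0.078 to 0.46, Cck -0.047 to 0.23, Sst -0.16 to 0.47, Ghrl -0.20 to 0.46, Nts -0.14 to 1.17, Chga -0.16 to 0.19. In the KO IEC organoids: Gip -0.51 to 1.42, Cck -0.33 to 1.82, Sct -0.75 to 0.23, Gcg -0.43 to 0.74, Nts -0.094 to 0.49, Sst -1.16 to 1.45, Ghrl -0.91 to 1.73, Tac1 -0.13 to 1.05, Chga -0.013 to 1.34. With a term for the class of mitochondrial ribosomal RNA, Gip in the crypts was -0.030, and Chga in the crypts was 0.0043 under the replicate block.

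Over all genes, the number called was 934 in the crypts (1479 without the filter, 2490 with DESeq2, 4 with the block, 2 with the class covariate, 2 to 2468 over left-out libraries), 1 in the KO IEC organoids (223, 27 and 1, and 0 to 2322) and 4278 in the KO CAG organoids (4811, 2761 and 4932, 2789 to 5177, and 477 in one fit of 16 libraries). Same-numbered WT and KO libraries deviated with correlations of -0.04, 0.19, -0.40 and 0.43 in the crypts, 0.34 in the KO IEC organoids and 0.067 in the KO CAG organoids, and the labels tie the numbers to no animal, batch or day. Pairing was not established, since the crypts do not show it and the organoids have 2 pairs each. With the number as a replicate block 0, 0 and 9 hormone genes were called, as without it, the 9 including Gast. With 2 libraries a group, and at the floor of 3 counts, changes in Gast, Pyy and Nts are the least certain.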
